A study of Mus musculus with 2 samples.

Results

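Desert regions were DLX2-marked segments that lay far from any protein-coding gene and were found in both CUT&Tag replicates. A shared region was a segment of mm10 (GRCm38) covered by a peak in each of the 2 replicates, with at least 1 bp in common. A shared region on chromosomes 1 to 19 was called a desert region when it overlapped no RefSeq lncRNA gene and lay over 100 kb from the nearest RefSeq protein-coding gene. In all, 1383 of 10812 shared regions on these chromosomes met the rule, or 12.8%, out of 10921 shared regions on all sequences. A peak that met several peaks of the other replicate gave several regions. The 1383 regions thus came from 1380 peaks of replicate 1 and 1346 of replicate 2. A further 246 shared regions lay as far from coding genes but overlapped an lncRNA gene and were left out. Both libraries came from fresh cells of the maxillary process, which grows into most of the upper jaw, from wildtype C57BL/6 embryos at E12.5, and both used the same antibody against DLX2. They form 1 group, with no other genotype, treatment or age and no control library used here, so no comparison between conditions was possible. The labels do not say whether the replicates came from separate embryos or pools, and the peak lists hold no expression values against which the labelled tissue could be checked.

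A gene desert is a long stretch between neighbouring genes that holds no coding exons. Many deserts lie next to genes for transcription factors and signals of the embryo, and enhancers far from a promoter can reach it by looping of the chromatin. DLX2 is a homeodomain protein made in the neural crest cells that fill the first pharyngeal arch, and proteins of this family bind short AT-rich sites around a TAAT core. In CUT&Tag, an antibody directs a transposase that tags DNA around the bound protein, so a peak marks where fragments pile up and does not show that a nearby gene is regulated.

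Of the 1383 desert regions, 1 overlapped a RefSeq promoter window, so its sequence is shown as the example of a desert region whose bases could be read here. It spanned chr2:43128399-43128687, in the gap between *Lrp1b*, a lipoprotein receptor gene, and *Kynu*, an enzyme gene of tryptophan breakdown. It lay 475 kb from *Lrp1b* and 427 kb from *Kynu*, and 52 bp before the annotated lncRNA gene *Gm30225*. The part inside the window, chr2:43128490-43128687 on the plus strand of GRCm38, is printed 5′ to 3′ with the TAAT core, here read on the other strand as ATTA, in capitals.
Gm30225 promoter part: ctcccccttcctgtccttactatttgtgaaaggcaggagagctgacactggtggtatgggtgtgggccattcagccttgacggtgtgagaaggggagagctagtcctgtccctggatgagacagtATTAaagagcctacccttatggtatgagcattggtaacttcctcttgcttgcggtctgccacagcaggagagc
The 198 bases had a GC content of 53.0%, beside a median of 51.5% over all 32841 promoter windows, each read over the same offsets. On either strand the stretch held 1 match to TAAT, and 49.9% of the windows held at least 1. It held no match to the palindromic homeodomain site TAATTA, which includes TAAT and was found in 4.17% of windows. TGTGGT, the core read by runt proteins such as RUNX2, was absent and was found in 11.4% of windows, and CACGTG, the E-box read by bHLH proteins such as MNT, was absent and was found in 4.28%. These letters describe 1 stretch and do not locate a binding site. The summit of replicate 1 lay inside the printed stretch and that of replicate 2 lay before it. Replicate 1 had 7 fragments at this summit, a fold enrichment of 5.77, and replicate 2 had 10, a fold of 5.24.

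Replicate 1 held 28061 peaks and replicate 2 held 62093. Desert peaks made up 11.8% of the autosomal peaks of replicate 1 (3286 of 27789) and 11.1% of those of replicate 2 (6779 of 61053). Most desert peaks therefore had no partner in the other replicate. In replicate 1, 41.97% of desert peaks had a partner (interval 40.3 to 43.7%, 95% Wilson), beside 38.4% of the other autosomal peaks (37.8 to 39.04%). In replicate 2, 19.8% had a partner (18.9 to 20.8%), beside 17.0% of the others (16.7 to 17.3%). Desert peaks were met slightly more often than the others in both replicates. The intervals cover counting error only, neighbouring peaks are not independent, and with 2 libraries of 1 group these differences were not tested.

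The desert regions rested on few fragments. Fragments at the summit, recovered from the deposited fold and −log10 p, had a median of 7 in replicate 1 (quartiles 6 and 9) and of 12 in replicate 2 (quartiles 9 and 16). The other shared regions had the same medians of 7 and 12. Fold enrichment, which divides summit fragments plus 1 by local background plus 1 within a library, had a median of 5.17 in replicate 1 and 5.38 in replicate 2. In the other shared regions the medians were 5.05 and 5.06. The local background was lower in the deserts, at a median of 0.453 against 0.530 fragments in replicate 1 and 1.23 against 1.42 in replicate 2, and its part in the fold was not tested. Folds of replicates 1 and 2 correlated across the 1383 regions with a Spearman's rho of 0.478, beside 0.432 in the 9429 others, a description over regions that share 2 libraries.

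A fold of at least 5 in both replicates was reached by 616 desert regions, or 44.5% (95% Wilson interval 41.9 to 47.2%), against 35.1% of all autosomal shared regions. A −log10 q of at least 5 in both replicates was reached by 258, or 18.7%, against 15.5%. The desert regions thus held somewhat more strong regions than all shared regions did, whereas their summits were no closer. The summits of the replicates lay within 50 bp of each other in 581 desert regions, or 42.01%, against 43.0%, and the median distance was 65 bp, beside 62 bp in the others. The desert regions had a median length of 162 bp, beside 150 bp.

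**Figure D1:**
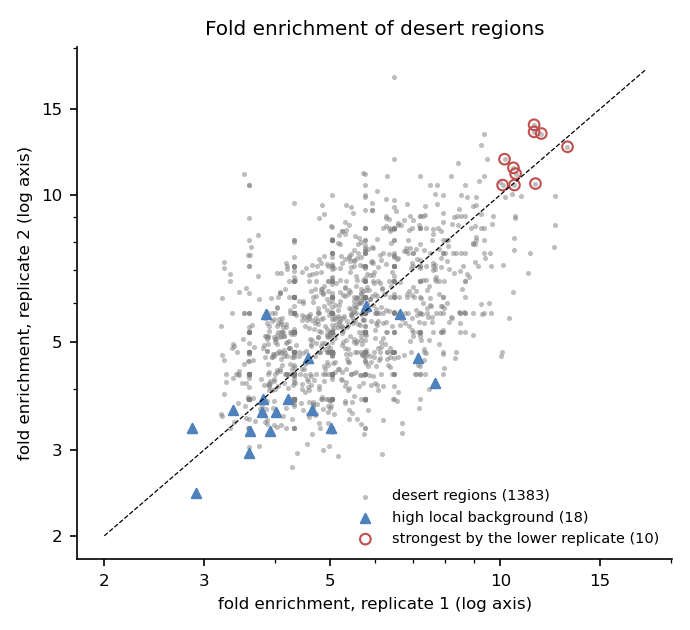
Fold enrichment of each of the 1383 desert regions in replicate 1 (x axis) and replicate 2 (y axis), both on log axes, with the line of equal folds dashed. Red circles mark the 10 regions with the highest fold in the weaker replicate, all above 10 in both, and blue triangles the 18 regions whose local background was over 5 times the lowest of its library.

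Desert regions were sparse for the sequence they could occupy. Between the first and last coding gene of each chromosome, sequence over 100 kb from coding genes and outside lncRNA genes came to 584 Mb, or 24.4% of the span. It held 1360 desert regions, or 2.33 per Mb, and the remaining autosomal sequence held 5.19 shared regions per Mb, a ratio of 0.449. The other 23 desert regions lay beyond the first or last coding gene. Each replicate's own peaks gave ratios of 0.413 and 0.385, a mean of 0.399 ± 0.0198 (SD, n = 2). The density also differed with distance inside the deserts. At 100 to 150 kb from the nearest coding gene there were 4.30 desert regions per Mb, at 200 to 300 kb 2.79 and at 500 to 1000 kb 0.941. Beyond 1000 kb there were 0.339 per Mb, and each step outward was lower in the shared regions and in both replicates alone. Replicate 1 went from 9.65 to 1.47 peaks per Mb over the same range and replicate 2 from 19.04 to 3.26. The median desert region lay 199 kb from its nearest coding gene (quartiles 137 and 330 kb), 141 lay over 500 kb away and 21 over 1 Mb, with a maximum of 2092 kb. Base composition and how well reads can be placed differ along chromosomes, and their part in these densities was not tested.

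The regions were spread unevenly over the deserts. Of 1343 gaps between neighbouring coding genes that held such sequence, 590 held at least 1 desert region, or 43.9%. A single region was found in 294 of them and 2 to 5 regions in 254. The 42 deserts with 6 or more held 379 regions, 27.4% of all, in 30.4 Mb, 5.21% of the desert sequence. Of the 42, 19 had a developmental gene at a flank, beside 302 of all 1343 deserts. Among the 358 deserts with 300 kb to 1 Mb of such sequence, 106 did. Long deserts were the least dense. Those with up to 100 kb of such sequence held 5.40 regions per Mb. Those with 300 kb to 1 Mb held 3.20 and those with over 3 Mb held 0.541. At least 1 region was nonetheless found in 78.9% of deserts with over 3 Mb, against 19.1% of those with up to 100 kb. The part of distance from genes in these densities was not tested. The longest gap, 4542 kb between the protocadherin genes *Pcdh20* and *Pcdh9*, held 3 regions. By chromosome the density ran from 1.46 per Mb on chromosome 14 to 3.58 on chromosome 9.

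Deserts beside developmental genes were denser. A list of 630 genes for transcription factors, signals and receptors of the embryo was compiled with earlier results of these data known. It put a developmental flank on 302 deserts, of which 162 held a region (53.6%, against 43.9% of all deserts). These deserts held 443 regions, or 3.43 per Mb, and the 1041 without such a flank held 917, or 2.01 per Mb, a ratio of 1.70. The peaks of each replicate gave ratios of 1.58 and 1.49, a mean of 1.53 ± 0.0654 (SD, n = 2). The ratio was above 1 in each size class up to 3 Mb: it was 1.21 for deserts of up to 100 kb, 1.30 for 100 to 300 kb, 1.66 for 300 kb to 1 Mb and 1.56 for 1 to 3 Mb. Above 3 Mb it was 0.551, from 2 deserts with a developmental flank. Single regions were much alike in both sets. Those beside a developmental gene had median folds of 5.28 in replicate 1 and 5.46 in replicate 2, and the others had 5.05 and 5.37, and 45.8% against 44.6% reached a fold of 5 in both.

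The families of the flanking genes covered a wide range of density, with deserts between genes of 2 families counted in both. Deserts beside homeodomain genes, which encode proteins of the same broad class as DLX2, held 118 regions in 56 deserts, 35 of them with a region, or 5.40 per Mb. SOX genes had 24 regions in 12 deserts (5.52 per Mb) and forkhead genes 23 in 14 (4.50 per Mb). bHLH and EBF genes had 26 regions in 25 deserts (3.82 per Mb), zinc finger and nuclear receptor genes 78 in 45 (3.26 per Mb) and other transcription regulators 58 in 49 (2.90 per Mb). Genes for signals and receptors had the lowest density of the developmental families, with 107 regions in 104 deserts (2.13 per Mb). The T-box value of 12.2 per Mb came from 1 desert: without that of *Tbx3*, the other 7 held 1 region, or 0.837 per Mb. The forkhead value also rested on few deserts: it was 2.23 per Mb without the desert of *Foxl1* and 1.25 per Mb without those of *Foxl1* and *Foxf1*. In the other families, leaving out the fullest desert moved the density by less than 1.5 times. Adhesion and synapse genes, which flank many of the longest deserts, had 162 regions in 152 deserts (0.940 per Mb), and 83 of those deserts held a region. Sensory receptor genes had 6 regions in 19 deserts (2.90 per Mb), 4 of them with a region, in 2.07 Mb of desert sequence. This density, from few regions, was near that of other transcription regulators and above that of signals and receptors. Of 258 developmental genes that flank a desert, 160 had at least 1 region there and 98 had none. A gene can flank a desert on each side, so this count cannot be set beside the share of deserts with a region. The same count over all flanking genes was not made.

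**Figure D2:**
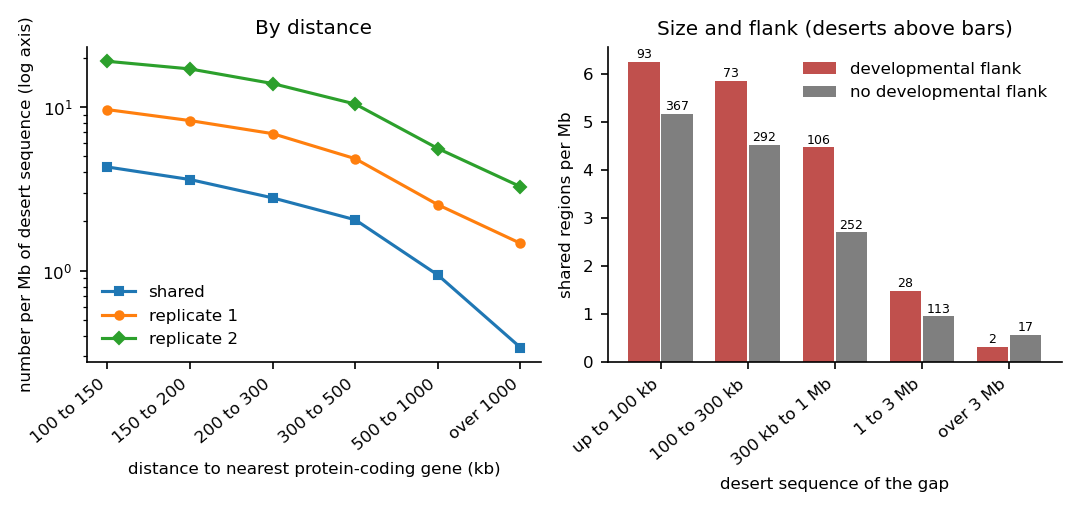
Left, shared regions and each replicate's peaks per Mb of desert sequence (log axis) by distance to the nearest protein-coding gene, which go from 4.30 to 0.339 per Mb for the shared regions. Right, shared regions per Mb by the amount of desert sequence in the gap, for deserts with (red) and without (grey) a developmental flank, with the number of deserts above each bar.

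The 12 deserts with the most regions held 166 of them, and 5 of the 12 had a developmental flank, beside 302 of all 1343 deserts. Most of the 12 held 300 kb to 1 Mb of desert sequence, a class in which 106 of 358 deserts had such a flank. The list is ordered by the count itself, with ties by regions per Mb, so the counts describe it, and the order depended on the threshold. Of the 27 deserts named, that of *Adamts16* and *Irx1*, not among the 12, led with 4 regions at a −log10 q of at least 5. The *Nphp4* desert, which shared the highest count of 21 regions with the *Tbx3* desert, then held 2. At a fold of at least 5 the *Tbx3* desert led with 13. The first desert, chr4:152563185-153373220, lay between *Nphp4*, a gene for a protein of the ciliary base, and *Ajap1*, a gene for an adherens junction protein. It held 21 regions, with 38 peaks in replicate 1 and 59 in replicate 2. The second, chr5:118765439-119670533, lay between the Mediator subunit gene *Med13l* and *Tbx3*, and also held 21 regions, with 35 and 51 peaks. In the *Tbx3* desert 13 of the 21 regions had a fold of at least 5 in both replicates, and in the *Nphp4* desert 7 of the 21 did, on either side of the 44.5% over all desert regions. A −log10 q of at least 5 in both was reached by 3 and 2 of them, and these differences were not tested. The strongest region of the *Nphp4* desert, chr4:152880361-152880672, had folds of 8.94 and 9.50 and lay 317 kb from *Nphp4*.

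The next deserts held 16 regions each. The first was chr5:111457031-112246491, between *Mn1*, a transcription regulator needed for the bones of the skull and the palate, and the lens crystallin gene *Cryba4*. *Mn1* was not on the developmental list, so its desert counts among those without such a flank. Its strongest region, chr5:111630378-111630955, lay 173 kb from *Mn1* and had folds of 7.67 and 10.02, from 19 and 46 fragments. The other, chr2:178487367-179414935, lay between the cadherin gene *Cdh26* and *4930591A17Rik*. It had the most replicate 2 peaks of the 12, at 67, beside 32 in replicate 1. The deserts of *Lrig3* and *Atp23* (12 regions), *Hs3st4* and *4930571K23Rik* (11), *Kazn* and *Prdm2* (10) and *Nox3* and *Arid1b* (10) also had no listed developmental gene at a flank. *Lrig3* encodes a membrane protein with roles in the ear and face, and *Arid1b* a subunit of the BAF chromatin remodeller. Among these 4, the share with a fold of at least 5 in both replicates was highest in the *Kazn* desert, at 6 of 10, and the *Nox3* desert was the least dense, at 9.76 per Mb.

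**Figure D3:**
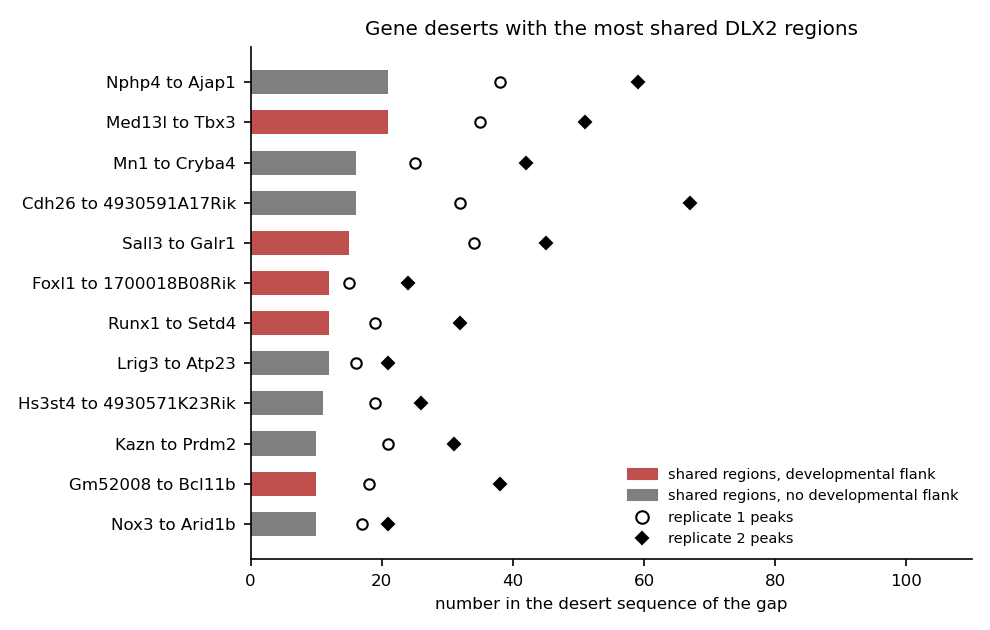
Number of shared regions (bars, red where a flanking gene is on the developmental list) and of peaks in replicate 1 (open circles) and replicate 2 (black diamonds) in the desert sequence of the 12 gaps with the most desert regions. The bars run from 21 to 10 regions, and replicate 2 had more peaks than replicate 1 in each gap.

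*Tbx3* encodes a T-box repressor of limb, heart and gland development. The 21 regions of its desert ran from 104 kb to 780 kb before the gene, over 677 kb, with a median spacing of 28.5 kb, so they were spread along the gap and not gathered at either end. Their median folds were 5.67 in replicate 1 and 5.58 in replicate 2. The strongest by the weaker replicate, chr5:119201689-119202014, lay 469 kb from *Tbx3* and 436 kb from *Med13l*. It had folds of 7.38 and 7.16, from 13 and 22 fragments.

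Zinc finger genes flanked several of the fullest deserts. Here and below, regions are counted for the developmental gene of a desert, although in some deserts most lay nearer to the other flank. *Sall3*, a spalt gene with roles in the palate and cranial nerves, had 15 regions in a gap of 1405 kb on chromosome 18, from 129 to 995 kb from the gene. Their median folds were 4.96 and 5.32, and 4 of the 15 had a fold of at least 5 in both replicates, so many of these regions were weak in 1 replicate. The region at chr18:81664096-81664653 reached a fold of 11.8 in replicate 2 but 6.48 in replicate 1. *Bcl11b*, needed for T cells and for teeth, had 10 regions between 128 and 656 kb away, in the gap chr12:107112137-107910402. Of these, 3 had a fold of at least 5 in both replicates.

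The forkhead genes *Foxl1* and *Foxf1*, both of the gut mesenchyme, stood in the same stretch of chromosome 8 and had the densest deserts of those named. Ties in count were ordered by density, so the *Foxf1* desert was named ahead of other deserts with 5 regions because it was dense. The desert after *Foxl1*, chr8:121130645-121530775, held 12 regions in 186 kb of desert sequence, or 64.5 per Mb. Its regions were weak, with median folds of 4.86 and 4.76 and 3 of 12 at a fold of at least 5 in both replicates. The desert between *Irf8* and *Foxf1*, chr8:120756695-121084385, held 5 regions in 107 kb, or 46.6 per Mb. These were stronger, with median folds of 7.37 and 6.87 and 4 of 5 at a fold of at least 5 in both. The region chr8:120932735-120933254, 151 kb from *Foxf1*, had folds of 7.37 and 9.49, from 13 and 31 fragments. The regions of these deserts thus differed in strength, which was not tested.

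Homeodomain genes gave 9 of the 20 developmental deserts with the most regions, beside 56 of the 302 deserts with a developmental flank. The Iroquois genes *Irx1*, *Irx2* and *Irx4*, a cluster with roles in patterning, stood at 3 deserts on chromosome 13. The gap between *Adamts16* and *Irx1*, chr13:70841846-71958231, held 9 regions, that between *Irx1* and *Irx2* held 3 and that between *Irx2* and *Irx4* held 6. In the second Iroquois cluster, the gap between *Irx3* and *Irx5* held 1 region, with 5 and 14 peaks in the replicates alone. All 9 regions of the *Adamts16* gap lay over 500 kb from *Irx1*, at 512 to 974 kb, and at 143 to 604 kb from *Adamts16*. The strongest region between *Irx2* and *Irx4*, chr13:73122936-73123244, lay 136 kb from *Irx4* and had folds of 9.66 and 8.70.

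The teashirt genes *Tshz1* and *Tshz2*, which encode zinc finger proteins with a homeodomain, had 9 regions each. In the gap between *Zfp64* and *Tshz2* the region chr2:169285133-169285572, 347 kb from *Tshz2*, had folds of 9.06 and 9.91. Most regions of this gap were nearer to *Zfp64*. In the gap between *Zfp516* and *Tshz1*, 6 of 9 regions had a fold of at least 5 in both replicates. *Zfhx3*, a large zinc finger and homeodomain gene, also had 6 of 8 regions at that level, with median folds of 5.99 and 6.24. These regions lay 267 to 531 kb from *Zfhx3* and 159 to 424 kb from *Psmd7*, and most were nearer to *Psmd7*. *Pou3f3*, a POU gene expressed in the upper jaw mesenchyme, had 8 regions across a gap of 1839 kb, the farthest 1710 kb from the gene and 128 kb from *Tmem182*. Most of the 8 were nearer to *Tmem182*. *Prox1*, known for lymphatic vessels, had 6 regions, as did *Hlx* and *Nkx6-1*. Of those of *Nkx6-1*, 3 lay within 141 kb of the gene and the others beyond 448 kb, which left the middle of the gap empty. The pair chr5:101209983-101210095 and chr5:101210240-101210693 came from 1 replicate 2 peak, as did chr5:101529021-101529174 and chr5:101529403-101529416. Pairs from a single peak of a replicate also lay in the deserts of *Tshz1*, *Pou3f3* and *Sall3*, among others, so counts of regions can exceed counts of sites.

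Of the signal and receptor genes, *Plxna2*, a semaphorin receptor, had 8 regions, *Ephb1*, an ephrin receptor, had 7 and *Bmp4*, a growth factor of the facial mesenchyme and epithelium, had 6. Those of the *Plxna2* desert lay 124 to 1123 kb from *Plxna2* and 126 to 1125 kb from *Camk1g* at the other flank. Most of them were nearer to *Camk1g*. The region chr1:194303471-194303915, 316 kb from *Plxna2*, had folds of 10.2 and 9.89. The 6 regions of *Bmp4* lay at 132 to 617 kb and none had a −log10 q of at least 5 in both replicates, as none did beside *Ephb1*. Most regions of the *Bmp4* desert were nearer to *Ddhd1*, and most of the *Ephb1* desert were nearer to *Ppp2r3a*. The folds of the *Bmp4* regions ran from 3.84 to 5.28 in replicate 1 and from 3.81 to 5.71 in replicate 2. *Runx1*, a runt transcription factor of blood and of the palate, had 12 regions at 129 to 643 kb, with median folds of 5.24 and 5.10. *Auts2*, a neural chromatin regulator, had 9 regions spread over 1174 kb, and *Sox2*, a stem cell and sensory placode factor, had 7 in the gap towards *Atp11b*. The best *Sox2* region, chr3:34999675-34999899, lay 347 kb from the gene and had folds of 7.87 and 7.42.

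**Figure D4:**
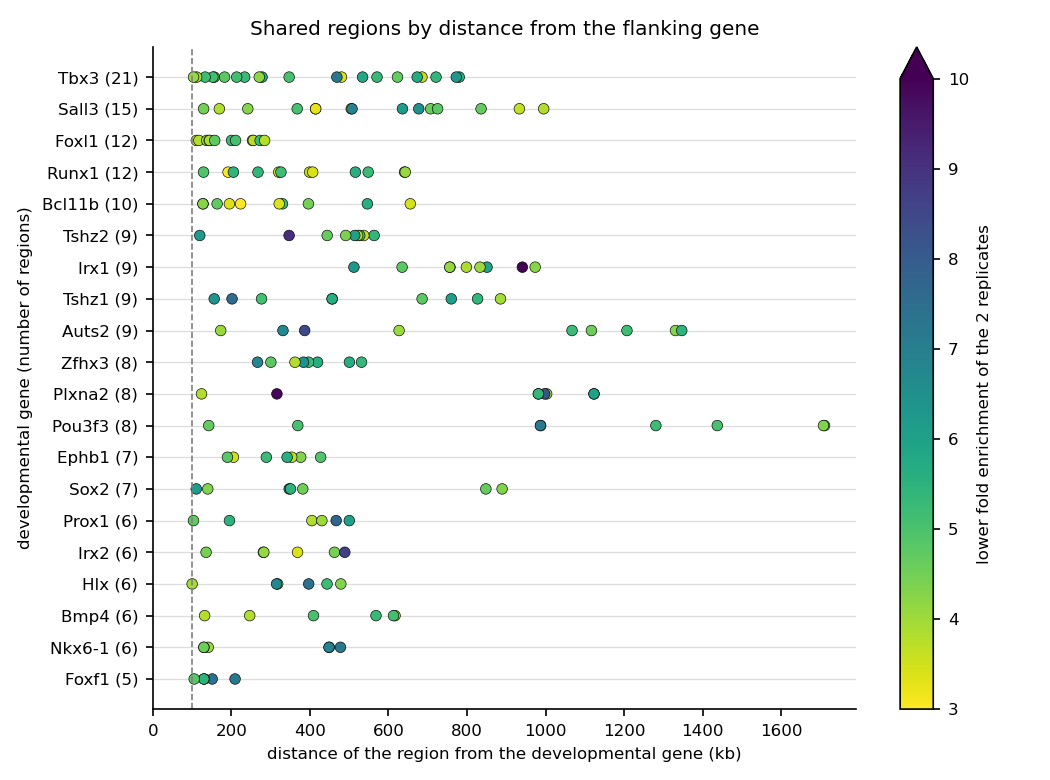
Distance in kb (x axis) of each desert region from the flanking developmental gene, for the 20 deserts with a developmental flank that hold the most regions (y axis, with the number of regions; the gap between *Irx2* and *Irx4* is measured from *Irx2*). Colour gives the lower of both fold enrichments, and the dashed line the 100 kb of the rule. The *Tbx3* regions run from 104 to 780 kb, and those of the *Adamts16* gap lie beyond 500 kb from *Irx1*.

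Deserts with a developmental gene on both sides numbered 23. Of these, 16 held a region, and together they held 33 regions, or 4.19 per Mb. After the *Irx2* and *Irx4* gap, the fullest were those between *Ednrb*, the endothelin receptor of neural crest cells, and *Pou4f1*, a sensory neuron factor, and between *Smad2*, which carries TGF-beta signals, and *Skor2*, with 4 regions each. The *Ednrb* gap had 4 peaks in replicate 1 and 3 in replicate 2, and the *Smad2* gap had 7 and 11. The gap between *Tfap2c*, a neural crest factor, and *Bmp7*, a growth factor, held 2, as did that between the receptor genes *Pdgfra* and *Kit*. The long gap between *Zeb2*, a factor of neural crest migration, and *Acvr2a*, an activin receptor, held 1 region in 2959 kb of desert sequence, and the replicates had 8 and 13 peaks there.

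Of 8 genes the study discusses around DLX2, chosen here with these results known, *Mnt* and *Wnt1* flanked no desert. *Runx2*, the master factor of bone cells, flanked 1 desert with 15.8 kb of desert sequence and no peak in either replicate, too little sequence for a count of 0 to say much. *Dlx2* itself, *Msx2*, a homeodomain factor of the skull, and *Zeb2* each flanked 1 desert with 1 region, in 38.1, 299.7 and 2959 kb of desert sequence, and *Rora*, a nuclear receptor gene, 1 desert with 3. *Sox9*, the cartilage factor, whose long upstream desert is known to hold enhancers used in the face, had 5 regions before it and 1 after it. In the upstream gap, chr11:111726302-112782209, the regions lay at 152 to 485 kb from *Sox9*. The strongest by the weaker replicate, chr11:112327256-112327529, lay 455 kb away, with folds of 6.49 and 7.59 and summits 1 bp apart. Replicate 1 had 6 peaks in this gap and replicate 2 had 20.

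The 10 strongest desert regions, by the fold in the replicate where it is lower, lay, with 1 exception, outside the 27 deserts named for their counts. The exception and first, chr13:71017060-71017382, lay in the gap between *Adamts16* and *Irx1*, 175 kb from *Adamts16*, 941 kb from *Irx1* and 943 bp from the lncRNA gene *Gm36734*. Its folds of 13.1 and 12.54 came from 21 and 28 fragments in replicates 1 and 2, with summits 27 bp apart. The second, chr18:26216620-26217129, had folds of 11.8 and 13.4 and lay 462 kb from *Celf4*, an RNA-binding protein gene, in a gap of 4511 kb that held 2 desert regions. It lay 64 bp from the lncRNA gene *Gm33228*. The third, chr9:112445351-112446002, lay 209 kb from *Arpp21* with folds of 11.5 and 13.5. The sixth, chr8:115547710-115548237, lay 155 kb from *Maf*, a bZIP transcription factor gene, with folds of 10.5 and 11.4. Another 4 of the 10 lay nearest to *Mreg*, *Adra2a*, *1810013L24Rik* and *Adgrl3*, at 152 to 283 kb, with weaker folds of 10.5, 10.5, 10.2 and 10.1. Of the flanks of the regions described, *Irx1* and *Maf* were on the developmental list.

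The fifth strongest stood apart. It was chr2:98662533-98662724, over 1 Mb from the nearest coding gene *Lrrc4c*, with folds of 10.6 and 11.1 from 29 and 67 fragments. It belonged to 4 regions within 4.88 kb, a stretch where mouse sequencing data of many kinds are known to pile up. Its local background was 1.82 fragments in replicate 1 and 5.15 in replicate 2, beside medians of 0.453 and 1.23 over all desert regions. A further 18 desert regions, 1.30% against 0.329% of the other shared regions, had a local background over 5 times the lowest of the library in either replicate. Of these, 3 lay in chr17:39843241-39847914, beside *AY036118* and partly over the ribosomal RNA pseudogene *Rn18s-rs5*, with up to 141 and 369 fragments and backgrounds of 20.4 and 63.9. Another 8 lay on chromosome 4 and 4 on chromosome 16 before the first coding gene, and 3 lay between *Fam43a* and *Xxylt1*. None lay in the 27 deserts named for their counts.

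Most desert regions stood alone. With regions no more than 20 kb apart joined into a run, 1006 of the 1360 between coding genes, or 74.0%, had no neighbour, 122 runs held 2 and 33 runs held 3 or more, with 110 regions. The longest run held 6 regions in 47.1 kb of the *Foxl1* desert, 111 to 158 kb from the gene, and that desert also held a run of 4. Within the run of 6, chr8:121274460-121274815 and chr8:121274938-121275033 had identical replicate 2 values and were parts of 1 replicate 2 peak. None of the 6 had a fold above 4.75 in its weaker replicate. Runs of 4 also lay in the deserts of *Kazn*, *Mn1*, *Plxna2*, *Tshz2* and *Nphp4*, so these fuller deserts combined runs with single regions. The run of 4 in the *Plxna2* desert covered 21.3 kb, 247 kb from *Camk1g* and nearly 1 Mb from *Plxna2*. It had the highest median fold in replicate 1 among the runs of 4, at 6.58, with 6.26 in replicate 2. The 6.26 came from 1 replicate 2 peak that gave both chr1:193637808-193637998 and chr1:193638145-193638218. The runs in the *Kazn* and *Mn1* deserts also held a pair from 1 replicate 2 peak.

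Other annotation lay near some desert regions although the rule kept lncRNA genes out. The median distance to the nearest lncRNA gene was 52.6 kb, and 204 regions lay within 10 kb of one. Genes of other types were overlapped by 15 regions, of which 7 overlapped a pseudogene, 1 a miRNA gene (*Mir466f-4*, in the *Irx1* desert) and 7 an immunoglobulin or T cell receptor locus. At the border of the rule, the closest regions kept lay at 100.02 kb (*Hlx*), 100.07 kb (*Cxcr4* and *Thsd7b* gap) and 100.30 kb (*Zbtb40*). The closest ones left out lay at 99.87 kb (*Efnb2*), 99.61 kb (*Zfp827*) and 99.15 kb (*Nectin1*). Their folds overlapped: the kept regions had 3.98 to 5.47 in replicate 1, and those left out had 3.60 to 4.01.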

How the data were processed

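DLX2 CUT&Tag peaks of 2 libraries were used. The methods of the study name Trim Galore for trimming and bowtie2 for alignment to mm10. The submitters' processing notes instead name Trim Galore 0.4.5, Bowtie 1.1.2 and MACS2 2.2.7, and the labels describe sonicated chromatin where the methods describe a transposase, which could not be resolved here. Peaks were deposited per library, and the calling settings are not given in the sources used here. The deposited lists are not of the length the study describes, and the step between them is likewise not given, so counts of shared regions refer to the deposited lists.

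Fold enrichment, as deposited, is a linear ratio. The −log10 p and −log10 q deposited are the peak caller's own, and the deposited score, 10 times the −log10 q, was not needed. Read totals were not given in these files. Fragments at each summit were recovered from fold, as fragments plus 1 over background plus 1, and from −log10 p as a Poisson tail, with a tolerance of 0.001, for 100% of peaks in both replicates. They are an inference, and the lowest background, 0.387 and 1.10 fragments, shows that replicate 2 was the deeper library.

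Genes were RefSeq genes of GRCm38.p6, and 340 listed before position 3000000 were left out. Deserts were gaps between merged protein-coding genes. The developmental, adhesion and synapse lists were compiled by hand from general knowledge, with earlier results of these data known, and 757 of 772 symbols matched. Sensory receptor genes were recognised by symbol. Promoter sequences came from RefSeq (GRCm38.p6). No genome sequence was used here, so base composition and motifs of the other regions were not analysed here.

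Named were the 12 deserts with the most regions, the 20 fullest with a developmental flank, the 10 regions with the highest lower fold, the 3 regions on each side of 100 kb and the longest runs. Deserts tied in count were ordered by regions per Mb of desert sequence. Of the 10 regions, 1 is not reported here. Other items named, such as strong regions within a named desert, gaps with developmental genes on both sides, chromosome extremes and the 8 genes the study discusses, were chosen after values were seen. The members and lists were chosen with earlier results of these data known. Regions are not replicates and 2 libraries of 1 group allow no test, so values are descriptions. Intervals of shares are 95% Wilson intervals for counting error alone. Overlap, placement and fragment recovery were tested on simulated data. The software was pandas 2.3.3 and numpy 2.4.6 under Python 3.11.15, with scipy 1.17.1 for Poisson tails, statsmodels 0.14.6 for intervals, matplotlib 3.10.9 and, for the simulated test, bedtools 2.31.1.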

Additional observations from a re-analysis of the deposited data

Results flagged for a closer look

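The X chromosome lies outside the rule. Under the same distance and lncRNA limits it held 5 desert regions among its 69 shared regions, beside 1383 of 10812 on chromosomes 1 to 19. In 53.9 Mb of such sequence this came to 0.0927 per Mb, below the lowest autosome at 1.46. The X held only 69 shared regions in all, and its density outside such sequence is not given here. The low value thus cannot be read as a trait of its deserts. The regions lay 120 to 480 kb from the nearest coding gene, with folds of 3.32 to 5.77 in replicate 1 and 4.28 to 6.66 in replicate 2.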

How the results depend on the processing

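The density of desert regions stayed below that of other autosomal sequence, and that of deserts with a developmental flank above that of the others, under every alternative run. Values for which no spread was exceeded are given as counts: of 111 comparisons of a value with its alternative, 61 stayed within 1.5 times (counts), 1 SD of the replicates (shares, ratios and folds) or the 95% interval (summits and met peaks), 24 were higher and 26 lower. A −log10 q of at least 5 in both peaks left 258 regions in 190 deserts, 15.4% of shared regions, with a density ratio of 0.567, a developmental ratio of 1.84, median folds of 7.57 and 7.55, summits 52 bp apart and 61.0% and 26.5% of peaks met. A fold of at least 5 left 616 regions in 350 deserts, 16.2%, with a ratio of 0.599, median folds of 6.21 and 6.66, summits 57 bp apart and 46.6% and 34.8% met. An overlap of 50% of each peak left 824 regions, with median folds of 5.76 and 5.67, summits 52.5 bp apart and 25.05% and 12.2% met. A distance of over 50 kb gave 2141 regions in 917 deserts, 19.8%, with ratios of 0.548 and, for the developmental flank, 1.55. A distance of over 200 kb gave 689 regions in 315 deserts, 6.37%, with a ratio of 0.322 and 39.7% and 18.3% met. Named coding genes alone gave 13.4% and a developmental ratio of 1.78, and that ratio was 1.63 without the desert of *Tbx3*. Each replicate alone gave 3286 to 6779 peaks in 870 to 1042 deserts, 11.1% to 11.8% of its peaks, density ratios of 0.385 to 0.413, developmental ratios of 1.49 to 1.58 and median folds of 4.28 (replicate 2) and 4.33 (replicate 1). The q, fold, overlap and distance settings and single replicates change which peaks are counted by construction. Other causes were not tested. In the 27 named deserts, 199 of 324 counts stayed within 1.5 times, 47 were higher and 78 lower. The leading desert changed: it was that of *Adamts16* and *Irx1* with 4 regions at the q limit, that of *Tbx3* with 13 at the fold limit and 16 at the 50% overlap, and that of *Cdh26* with 67 peaks in replicate 2 alone.

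The settings without overlaps of any annotated gene, without folds of 15 or more, with regions under 1 kb apart joined, and without high local background changed none of these values beyond the limits given. The last, the densities by family without single deserts, and every alternative for the developmental ratio, were chosen after seeing the data. A window for sequence features was not run, since no genome sequence was used here. No paired analysis was possible because the 2 libraries form 1 group. The low fragment numbers, with medians of 7 and 12, limit how well single regions are known. Missing partners were common in both replicates, and the part of depth in them was not tested.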
